A study of Drosophila melanogaster with 3 samples.

Results

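Binding of E(spl)mgamma-HLH was profiled by chromatin immunoprecipitation with sequencing (ChIP-seq) in whole Drosophila melanogaster embryos of both sexes, aged 0 to 16 hours, in 3 biological replicates that form 1 group. The embryos came from a single transgenic line in which the protein is stably expressed with GFP fused to its C terminus. The fusion was precipitated with an antibody to GFP from chromatin sheared by sonication to 200 to 800 bp. The sources do not say which promoter drives the transgene or how many copies the line carries, and a whole embryo mixes every tissue and many stages. The regions described here are 517 peaks that ranked high in replicates 1 and 3 and not in replicate 2. They were chosen by the authors' signal value: from each replicate's list the peaks of highest signal, called top peaks below, were taken, as many as the authors' reproducible set holds. A member is a replicate 1 top peak with its summit inside a replicate 3 top peak and with no base in common with a replicate 2 top peak. The 517 members made up 11.4% of the replicate 1 top peaks. A further 3160 (69.8%) met the same condition in replicate 3 and shared at least 1 base with a replicate 2 top peak, and these are called the peaks of all 3 replicates.

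E(spl)mgamma-HLH belongs to the Hairy/E(spl) family of basic helix-loop-helix (bHLH) repressors, whose genes in the Enhancer of split complex are switched on by Notch signalling. These proteins recruit the corepressor Groucho and in many tissues hold back the proneural genes that start neural development. In other assays they bind the E-box CACGTG, the class C site CACGCG and N boxes of the form CACNAG. Many ChIP-seq peaks of transcription factors in flies lie in open chromatin just upstream of genes. There the sequence TATCGATA, bound by DREF, and GAGAG, bound by the GAGA factor, are common promoter elements.

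Sequence at the summits is shown for 9 members, each as the forward strand of dm6 for 50 bp to either side of the replicate 1 summit, credited to the RefSeq Release 6 plus ISO1 MT genome. Capitals mark every match, on either strand, to 14 searched sequences. Among promoter elements these were the DREF site TATCGATA, its core CGATA (which lies inside it), the GAGA factor repeat GAGAG, the TATA box TATAAA and the element GGTCACAC bound by M1BP. E-boxes were represented by CACGTG along with CAGGTG, by CAGCTG, which proneural proteins bind, and by CATATG. The rest were the class C site CACGCG, the N box CACNAG with its form CACTAG, which lies inside it, the Zelda motif CAGGTA and the Su(H) core GTGGGAA. The first 4 were among the members of best rank in replicates 1 and 3. They lay near gce (chrX:15298359-15298459), MED17 (chr3R:18188968-18189068), CG4709 (chr2L:9954260-9954360) and CG9667 (chr3R:8126396-8126496).
gce: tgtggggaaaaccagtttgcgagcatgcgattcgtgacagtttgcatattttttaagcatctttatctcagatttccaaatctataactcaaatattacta
MED17: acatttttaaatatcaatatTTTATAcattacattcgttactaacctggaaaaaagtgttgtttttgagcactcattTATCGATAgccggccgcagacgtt
CG4709: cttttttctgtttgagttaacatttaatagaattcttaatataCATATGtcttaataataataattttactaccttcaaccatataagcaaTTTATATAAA
CG9667: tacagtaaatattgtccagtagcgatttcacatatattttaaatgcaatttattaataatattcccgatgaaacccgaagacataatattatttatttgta
The next were high in replicates 1 and 3 and shared no base with any listed replicate 2 peak, near PIG-K (chrX:2009467-2009567) and Ir94a (chr3R:22108453-22108553). An overlapping second member at PIG-K is listed in replicate 2, as given below.
PIG-K: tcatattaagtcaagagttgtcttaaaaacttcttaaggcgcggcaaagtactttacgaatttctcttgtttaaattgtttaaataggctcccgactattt
Ir94a: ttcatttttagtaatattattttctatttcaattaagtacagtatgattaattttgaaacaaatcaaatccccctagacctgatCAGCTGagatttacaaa
The last 3 were chosen after their values were seen, to show a DREF site, a CACGTG E-box and a class C site in a member. They lay at RpL37-1 (chrX:15139342-15139442), mRpL16 (chrX:1890081-1890181) and ago (chr3L:4254334-4254434).
RpL37-1: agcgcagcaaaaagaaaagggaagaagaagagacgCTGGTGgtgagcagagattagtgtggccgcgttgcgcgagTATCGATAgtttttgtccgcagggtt
mRpL16: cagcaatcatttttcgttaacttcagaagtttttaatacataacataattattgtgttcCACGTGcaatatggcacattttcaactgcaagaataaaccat
ago: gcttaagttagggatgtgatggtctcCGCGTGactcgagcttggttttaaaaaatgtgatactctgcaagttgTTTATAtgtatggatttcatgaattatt
The windows at gce, CG9667 and PIG-K held none of the 14 sequences. The window at CG4709 had the lowest GC content of the 9, at 18.8%, and that at RpL37-1 the highest, at 51.5%.

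The replicates' lists differed in length. Replicate 1 listed 23367 regions, replicate 2 listed 30000 and replicate 3 listed 24251, background regions included. A q-value below 0.05 was given to 5411, 12953 and 7087 of them. The read depth is unknown, because the files give no counts. The signal at the limit of the top peaks was 39.9, 43.1 and 35.4 in replicates 1 to 3. Signal was therefore read only as a rank within its own list, and ranks from different lists show no change. The round length of the replicate 2 list was not tested as a cause of any value here. All 3 samples are 1 group and peaks are not replicates of it, so no test was made. Intervals below are 95% Wilson intervals for a share, or Newcombe intervals for a difference of 2 shares, and cover counting error over peaks only.

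Most members were among the lower-ranked top peaks of replicates 1 and 3. Ranks ran from 232 to 4513 in replicate 1, with a median of 3172, and from 227 to 4522 in replicate 3, with a median of 3158. In both lists 375 members (72.5%) lay beyond rank 2262, the middle of the top peaks. In replicate 1 alone 408 members (78.9%) lay beyond it, against 1064 of the 3160 peaks of all 3 replicates. The 4 members that stood in the upper 1000 of both lists are described below. The members' signal ran from 39.97 to 227 in replicate 1, with a median of 53.6, and from 35.4 to 210 in replicate 3, with a median of 47.6. These values chose the members and are a description. Across the 517 peaks Spearman's rho of the 2 ranks was 0.389, over a range that the rule narrows at both ends. The summits of replicates 1 and 3 lay a median of 26 bp apart (quartiles 12 and 51 bp).

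**Figure D1:**
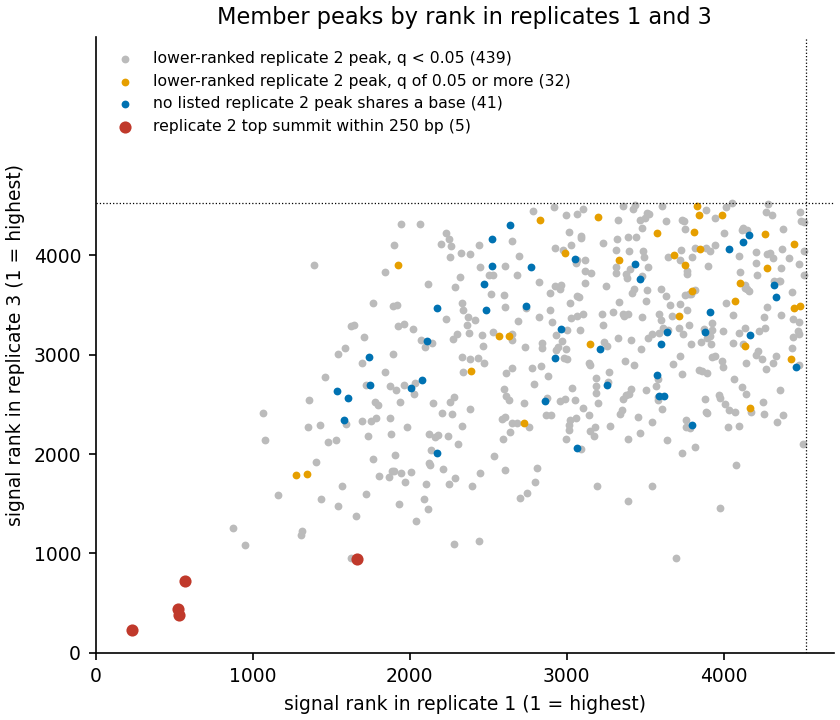
Signal rank of each of the 517 members in replicate 1 (x axis) and replicate 3 (y axis), with rank 1 the highest and dotted lines at the limit of the top peaks. Colour gives the state of the site in replicate 2. The 5 red points, with a replicate 2 top summit within 250 bp, include the 4 members of best rank, and most other members crowd towards the dotted lines.

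At the limit of the rule the signal values were close. The last members inside the replicate 1 limit lay near CG3040 (rank 4513, signal 39.97), hng3 (rank 4510) and jing (rank 4508, signal 40.1). The first peaks outside it that met the other conditions lay near Octbeta2R (rank 4527, signal 39.8), CG11041 (rank 4537) and Su(z)2 (rank 4539). On the replicate 2 side, the members that came closest to being left out lay near Gnpat, CG5515 and spn-A. Their replicate 2 ranks were 4532, 4549 and 4550, just past the limit.

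Most members were in the replicate 2 list at a lower rank and were not absent from it. A replicate 2 peak with a q-value below 0.05 shared a base with 441 of the 517 (85.3%), against 95.4% of all replicate 1 top peaks. Most of those share a base with a replicate 2 top peak, which the rule bars for members. A lower share in members is thus built into the rule and is no result. Another 32 members shared a base only with replicate 2 regions of q 0.05 or more. The remaining 44 (8.51%) shared no base with any region listed for replicate 2. The 473 listed members had replicate 2 ranks from 4532 to 26838, with quartiles of 5163, 6006 and 7656. Of them, 92 ranked no lower than 5000, a further 144 no lower than 6000 and a further 154 no lower than 9000. Only 23 ranked beyond 15000. Their replicate 2 signal ran from 11.4 to 43.1, with a median of 35.1, under the limit of 43.1 that the rule sets.

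The other sets that lacked 1 replicate showed the same kind of gap. Of 262 replicate 1 top peaks found in replicate 2 and lacking in replicate 3, 9 (3.44%) had no listed replicate 3 region and the rest had a median replicate 3 rank of 5596. Of 309 replicate 2 top peaks found in replicate 3 and lacking in replicate 1, 27 (8.74%) had no listed replicate 1 region and the rest had a median replicate 1 rank of 5775. A peak with a q-value below 0.05 in the missing replicate was shared by 85.3% of the members, by 71.0% of the set lacking replicate 3 and by 38.2% of the set lacking replicate 1. The lists of replicates 2, 3 and 1 held 12953, 7087 and 5411 peaks with such a q-value. Whether these numbers account for the shares was not tested.

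**Figure D2:**
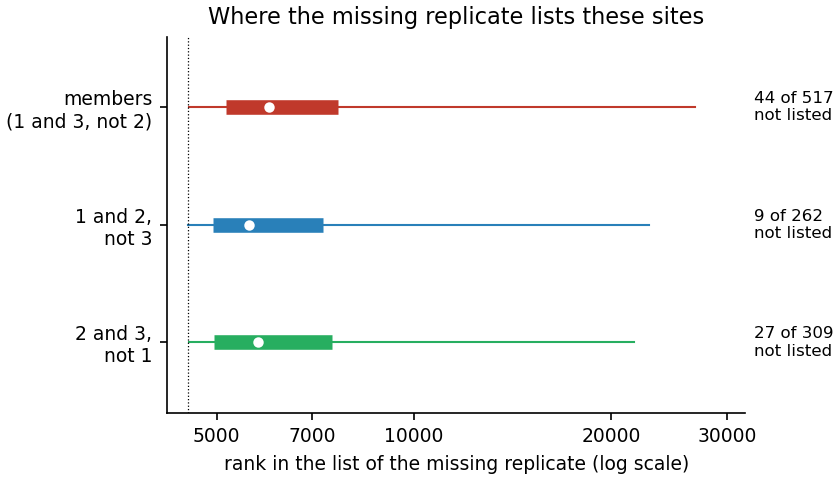
Rank, on a log axis, at which the missing replicate lists the sites of the members and of the 2 other sets that lack 1 replicate. Dots are medians, thick bars run between quartiles, thin lines from lowest to highest, and the dotted line is the limit of the top peaks. All 3 medians fall between 5596 and 6006, shortly past the limit.

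The members of highest rank stood beside a top peak of replicate 2. For 5 members (0.967%) a replicate 2 top summit lay within 250 bp of the replicate 1 summit although the peaks did not touch. A top summit of the missing replicate lay as near to 4 of the 309 peaks lacking replicate 1 (1.29%). In the set lacking replicate 3 this held for 1 of 262 (0.382%). The first of the 5 members, near gce, which encodes a bHLH-PAS receptor of juvenile hormone, ranked 232 in replicate 1 and 227 in replicate 3 (chrX:15298317-15298492). A replicate 2 peak of rank 448 lay 17 bp away from it, with its summit 154 bp off. The member at MED17, which encodes a subunit of the Mediator complex, ranked 529 and 377 in replicates 1 and 3 (chr3R:18188961-18189132). Its replicate 2 neighbour ranked 1074 and lay 29 bp away. The site itself was also listed in replicate 2 at rank 8417.

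The other 3 were of the same form. The member at CG4709 ranked 570 and 725 in replicates 1 and 3, and its replicate 2 neighbour, of rank 941, lay 10 bp away with a summit 40 bp off. The member at CG6550 ranked 526 and 439, and its replicate 2 neighbour ranked 1064 at a gap of 144 bp. The member near chinmo, a zinc-finger gene that acts in the timing of neuron identity, ranked 1665 and 949. Its replicate 2 neighbour ranked 1629 at a gap of 66 bp. As at MED17, the site near chinmo was itself listed in replicate 2, at rank 8571. All 5 were narrow in replicate 1, between 119 and 184 bp, and their replicate 2 neighbours were 100 to 132 bp wide. Peaks of the usual width with central summits cannot have summits within 250 bp of each other without touching. Narrow peaks here are thus largely built into the choice of the 5 and are no result. Among all members 8 (1.55%) were narrower than the usual 356 bp of the replicate 1 list, against 647 (20.5%) of the peaks of all 3 replicates. These shares were not matched for rank. Without the 5, the best rank among the 512 other members was 877 in replicate 1 and 956 in replicate 3. Without them the promoter share was 54.9% and the mean GC content of the summit windows 35.8%.

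The best members below these 5 were listed in replicate 2 at ranks from 4549 to 7145. The member in the promoter of Ice1, which encodes a subunit of the little elongation complex, ranked 877, 7145 and 1255 in replicates 1, 2 and 3. An intergenic member 5782 bp from the start of RYBP, which encodes a partner of Polycomb group proteins, ranked 950, 5390 and 1089. Promoter members followed at CG9667 (1310, 5046 and 1189) and at CG5515 (1317, 4549 and 1223). An intergenic member 4641 bp from Paics, a gene of purine synthesis, ranked 1625, 6743 and 956. In each of these the replicate 2 rank was past the limit, as the rule asks, and the replicate 2 q-value was below 0.05.

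The 44 members with no listed replicate 2 region lay less often in promoters and more often between genes than the other members did, by point values. Their median rank was 2944.5 in replicate 1 and 3119 in replicate 3, much as for all members, and 3 of them were the members at gce, CG6550 and CG4709 with a replicate 2 neighbour. Those next in rank lay at PIG-K, which encodes a subunit of the enzyme that attaches GPI anchors (ranks 1581 and 2347 in replicates 1 and 3), and near CG13324 (1539 and 2632). The PIG-K promoter is not free of replicate 2 peaks: an overlapping member there (chrX:2009548-2009903), matched to the same replicate 3 peak, ranked 3022, 4963 and 2347 in replicates 1, 2 and 3, with a replicate 2 q-value below 0.05. Then came members near CG46429 (1607 and 2564), CG10384 (2176 and 2015), Ir94a, an ionotropic receptor gene (1747 and 2695), Haspin, which encodes a histone H3 kinase (2005 and 2661), and CG5535 (1742 and 2977). Of the 44, 18 summits (40.9%, 27.7 to 55.6%) were in promoters, against 251 of the 441 members with a replicate 2 peak of q below 0.05 (56.9%, 52.3 to 61.5%). Intergenic summits numbered 14 of the 44 (31.8%, 20.0 to 46.6%), against 51 of 441 (11.6%, 8.91 to 14.9%). The intervals of the promoter share overlap and those of the intergenic share do not. With 44 peaks the shares are wide.

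The authors' own combined lists held most members. The summits of 441 members (85.3%, 82.0 to 88.1%) lay in the authors' reproducible set, against 87.1% of all replicate 1 top peaks. The share was 86.3% in the set lacking replicate 3, 80.9% in the set lacking replicate 1 and 98.6% in the peaks of all 3 replicates. Of the 673 peaks that were top peaks in replicate 2 only, 132 (19.6%) lay in the reproducible set. Members in the reproducible set had ranks there from 277 to 4497, with a median of 3480. The list called on the pooled replicates held 513 of the 517. Both lists were derived from these replicates, so they are no independent measure of the sites.

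Members lay mainly just upstream of genes. By summit, 285 (55.1%, 50.8 to 59.4%) were within 500 bp of a transcription start site (TSS), the promoter class, 162 (31.3%) were elsewhere in genes, mostly introns, and 69 (13.3%) were intergenic. Coding sequence outside promoters held 1 summit, and untranslated regions outside promoters held 0 of 517, with an upper bound of 0.738%. Using replicate 3 summits the promoter share was 55.7%. The promoter summits had a median position of -95 bp from the nearest protein-coding TSS, with quartiles of -178 and -45 bp, and 91.6% were upstream. In all, 51 members (9.86%) lay more than 10 kb from any protein-coding TSS.

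The promoter share of members was above that of the other sets that lack 1 replicate. It was 39.3% (33.6 to 45.3%) in the set lacking replicate 3, a difference of 15.8 percentage points (8.40 to 22.9). In the set lacking replicate 1 it was 37.9% (32.6 to 43.4%), a difference of 17.3 points (10.3 to 24.0). The 673 peaks that were top peaks in replicate 2 only, with no base in a top peak of the others, had 46.7%, a difference of 8.47 points (2.74 to 14.1). Throughout, this set and the set lacking replicate 1 were read at replicate 2 summits, and the other sets at replicate 1 summits unless said. Comparisons of position and sequence with those sets therefore also change the replicate that places the summit. The peaks of all 3 replicates had 51.99%, and that interval of the difference, -1.51 to 7.71 points, includes 0. Peaks of all 3 replicates ranked higher than members, so those beyond rank 2262 in replicate 1 were also compared alone. There the share was 51.7% in members (211 of 408) and 40.4% in peaks of all 3 replicates (430 of 1064), a difference of 11.3 points (5.62 to 16.9). Comparisons with the other sets, here and below, were not matched for rank. The promoter share of members itself changed with the number of top peaks taken, from 66.0% with 3000 to 38.5% with 9000.

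**Figure D3:**
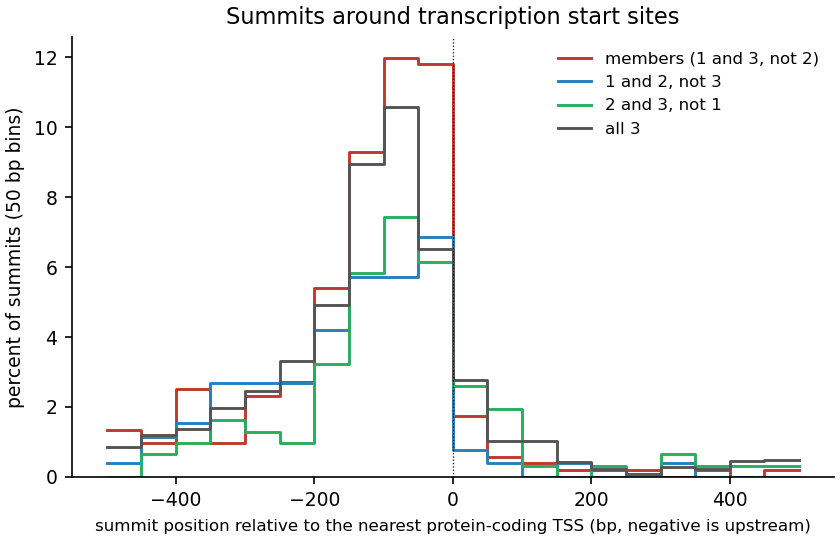
Summit position relative to the nearest protein-coding TSS in 50 bp bins, as percent of each set's summits, with negative positions upstream. Members peak between -100 and -50 bp, where 11.99% of them lie, and stay at 11.8% in the bin just upstream of the TSS, where the peaks of all 3 replicates are lower.

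Many promoter members had TSSs on both strands nearby, whether or not the summit lay between them. Of the 285, 138 (48.4%, 42.7 to 54.2%) had a TSS within 500 bp on each strand. The share was 23.3% (16.2 to 32.3%) in the set lacking replicate 3, 31.6% (23.9 to 40.5%) in the set lacking replicate 1 and 16.9% (13.1 to 21.4%) in the replicate 2 only peaks. None of these 3 intervals overlaps that of the members. It was 43.4% (41.0 to 45.8%) in the peaks of all 3 replicates, which does overlap. Peaks beyond the middle of the replicate 1 top peaks were also compared alone. There the share was 48.3% (41.7 to 55.1%) in promoter members, 102 of 211. In promoter peaks of all 3 replicates it was 36.7% (32.3 to 41.4%), 158 of 430, and these intervals do not overlap. At the replicate 3 summits of the members, whatever their rank, the share was 47.9%.

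**Figure D4:**
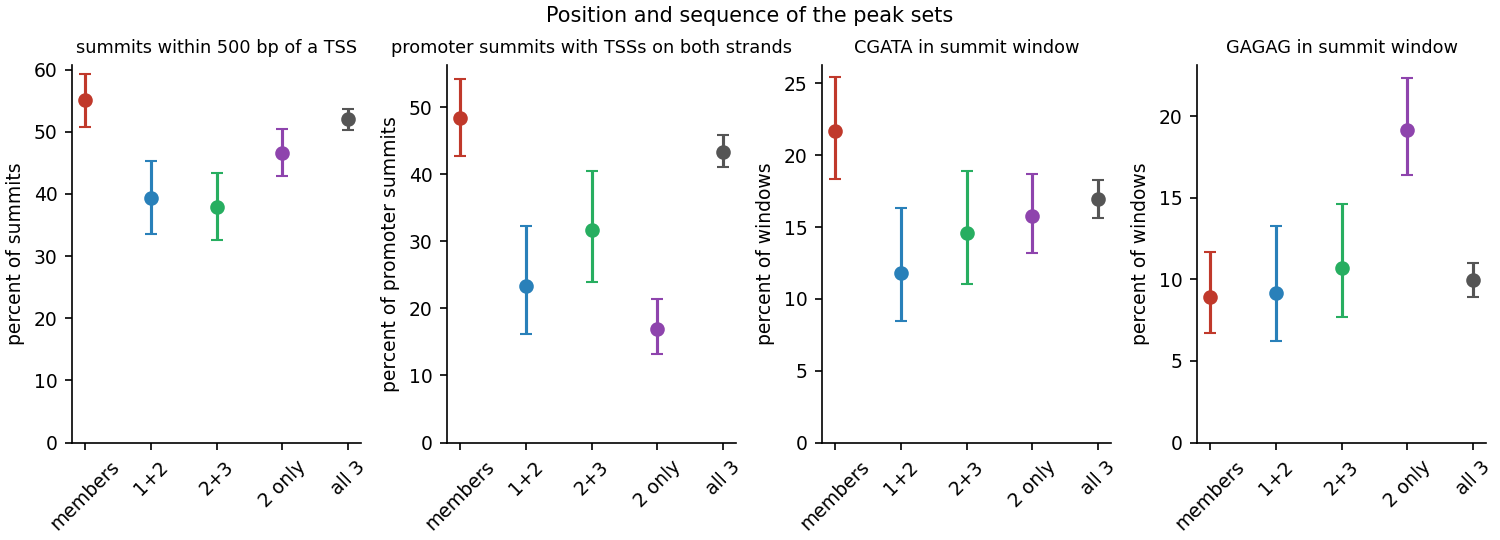
Share of summits in promoters, of promoter summits with a TSS on both strands, and of summit windows (50 bp to either side) with CGATA or with GAGAG, for the 517 members, the 262 peaks of replicates 1 and 2 lacking 3, the 309 of replicates 2 and 3 lacking 1, the 673 of replicate 2 only and the 3160 of all 3. Bars are Wilson 95% intervals. Members are highest in the first 3 panels, and the replicate 2 only peaks stand apart in GAGAG.

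Of the searched sequences, the DREF core CGATA was in more member windows than in those of the other sets. It was in 112 of 517 member windows (21.7%, 18.3 to 25.4%), such as those at MED17 and RpL37-1 printed above. It was in 11.8% of the set lacking replicate 3, 14.6% of the set lacking replicate 1, 15.8% of the replicate 2 only peaks and 16.9% of the peaks of all 3 replicates. The differences from these sets were 9.83 (4.25 to 14.9), 7.10 (1.60 to 12.2), 5.91 (1.46 to 10.45) and 4.73 points (1.14 to 8.69). Beyond rank 2262 alone, 20.8% of members and 17.6% of peaks of all 3 replicates held it, and the interval of that difference, -1.12 to 7.99 points, includes 0. At the replicate 3 summits of the members the share was 20.1% (16.9 to 23.8%). That interval overlaps the one of the peaks of all 3 replicates (15.7 to 18.3%). Promoter windows held it more often, 30.9% (25.8 to 36.5%) in members and 21.9% (19.9 to 23.9%) in peaks of all 3 replicates. The promoter windows of the set lacking replicate 3 had 18.4% (12.1 to 27.02%), those of the set lacking replicate 1 had 25.6% (18.6 to 34.2%) and those of the replicate 2 only peaks 25.2% (20.7 to 30.2%), all 3 with intervals that overlap that of the members. Outside promoters the share was 10.3% in members and 11.6% in peaks of all 3 replicates. In windows centred 100 bp upstream of all 19253 protein-coding TSSs the share was 19.5%.

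The full DREF site was rare. TATCGATA was in 12 member windows (2.32%, 1.33 to 4.01%), against 1.55% of the peaks of all 3 replicates and 2.27% of windows upstream of every protein-coding TSS. All differences from the other sets had intervals that include 0, the nearest to excluding it being against the set lacking replicate 1 (4.85%, -5.69 to 0.00386 points). Promoters held 11 of the 12. They were at MED17, Abl, a tyrosine kinase gene, NELF-B, which encodes a subunit of the negative elongation factor, CG10038, Dpm3, Sec63, mud, which encodes a spindle orientation protein, RpL37-1, CG2200, RASSF8 and CG10809. The other was the intergenic member near Haspin. These genes were named after their values were seen.

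The binding sites known for Hairy/E(spl) proteins were in few members. CACGTG was in 4 windows (0.774%, 0.301 to 1.97%), against 0.728% of the peaks of all 3 replicates, 2.23% of the replicate 2 only peaks and 1.01% of windows upstream of TSSs. They were at Dpm3, mRpL16, Cyfip and CG44838, named after their values were seen. The class C site CACGCG was in 6 windows (1.16%, 0.533 to 2.51%), one of them at ago, which encodes an F-box protein, against 1.08% of the peaks of all 3 replicates and 2.06% of windows upstream of TSSs. The replicate 2 only peaks had 4.31%, and the difference of -3.15 points had an interval of -5.07 to -1.28. N boxes CACNAG were in 60 windows (11.6%), against 10.3% of the peaks of all 3 replicates and 10.3% of windows upstream of TSSs. Of these forms, CACTAG was in 22 (4.26%, 2.83 to 6.36%), against 3.51% of the peaks of all 3 replicates and 2.17% of windows upstream of TSSs.

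GAGAG set the members apart from the replicate 2 only peaks. It was in 46 member windows (8.90%, 6.74 to 11.7%), against 19.2% (16.4 to 22.3%) of the replicate 2 only peaks, a difference of -10.3 points (-14.1 to -6.34). In the other sets it ranged from 9.16 to 10.7%, and in windows upstream of TSSs it was 15.9%. TATAAA was in 97 member windows (18.8%), against 20.2% of the peaks of all 3 replicates and 16.3% of windows upstream of TSSs. Against the replicate 2 only peaks, with 13.8%, the difference was 4.94 points (0.735 to 9.26). The Su(H) core GTGGGAA was in 6 (1.16%), against 0.981% and 1.27% of the same windows. The promoter element GGTCACAC was in 4 (0.774%), against 0.823% and 1.24%. CAGGTA, bound by Zelda, was in 13 (2.51%), against 1.74% and 2.33%. The E-box CAGGTG was in 11 (2.13%), against 2.56% and 3.10%, and against 5.73% of the set lacking replicate 3 the difference was -3.60 points (-7.23 to -0.832). CAGCTG was in 23 (4.45%), against 4.05% and 5.52%, and CATATG in 24 (4.64%), against 3.83% and 2.84%. A match is only a match of letters in this window.

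Member summits were rich in A and T. The mean GC content of the summit windows was 35.8% (SD 8.68, standard error of the mean 0.382 over 517 peaks), against 36.7% in the set lacking replicate 3, 33.6% in the set lacking replicate 1, 40.5% in the replicate 2 only peaks and 34.9% in the peaks of all 3 replicates. The standard errors of the other means ran from 0.152 to 0.551 points. In promoter members the mean was 36.7%, against 34.6% in other members. In bins of 21 bp the members' mean was 35.6% at the summit, 44.0% at -500 bp and 44.8% at 500 bp. The replicate 2 only peaks had 40.1% at the summit and 41.7% at -500 bp, a much smaller drop.

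**Figure D5:**
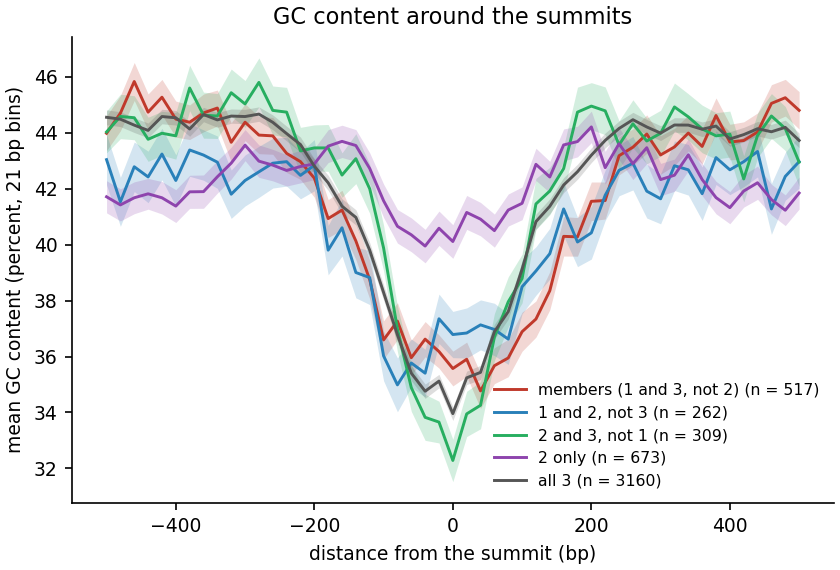
Mean GC content in 21 bp bins around the summits, by distance from the summit in bp, with bands of 1 standard error over peaks. The members' dip is centred on the summit and close to that of the peaks of all 3 replicates, while the replicate 2 only peaks dip only slightly below their surroundings.

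The members were spread over the genome and seldom clustered. Chromosome X held 111 (21.5%, 18.1 to 25.2%), against 16.4% of the set lacking replicate 3, 17.5% of the set lacking replicate 1, 14.1% (11.7 to 17.0%) of the replicate 2 only peaks and 19.2% of the peaks of all 3 replicates. Chromosome 4 held 4. Only 10 members shared a base with another member, in overlapping peaks such as those at PIG-K and Paics, so these are not separate sites. The 517 members matched 513 different replicate 3 peaks.

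Of 13945 protein-coding genes 611 (4.38%) held a member in the gene or within 1 kb upstream, and 62 members lay in none. A peak of all 3 replicates was also held by 196 of these 611 genes. The share of all genes with such a peak is not given here. This count, and those of such peaks in the gene lists below, therefore have no background beside them. There were 31 genes with at least 2 members, overlapping peaks counted singly, and ftz-f1 and spi had 3 each. Of those in spi, 2 overlap each other, sharing the same replicate 2 peak of rank 5119, and the second (chr2L:19577426-19577781) lies nearer to the TSS of msb1l. The members of ftz-f1, which encodes a nuclear receptor, were intronic and ranked 1928, 3523 and 3793 in replicate 1. The longer a gene, the more members it can hold, and gene length was not matched in the counts that follow.

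Among gene lists the EGFR pathway had the most members for its size. It had 3 of 10 genes with a member, against 4.38% of all genes. A peak of all 3 replicates was held by 7 of the same 10 genes. The best member of spi, which encodes an EGFR ligand, lay at -82 bp from its TSS and ranked 1931, 5119 and 1499 in replicates 1, 2 and 3 (chr2L:19577219-19577574). The member of pnt, which encodes an ETS activator of the pathway, was intronic and ranked 3603, 5042 and 3661. That of sty, which encodes the inhibitor Sprouty, ranked 4259, 7495 and 3375. In replicate 2 all 3 were listed with a q-value below 0.05.

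Of 18 Notch pathway genes only mam, which encodes a coactivator of Notch, held a member, an intronic one of ranks 3115, 5522 and 3847 in replicates 1, 2 and 3. The 7 E(spl) bHLH repressor genes and the 9 genes of proneural bHLH proteins and their partners held 0, while peaks of all 3 replicates were held by 2 and 1 of them. A member just outside that territory, -1337 bp from the TSS of E(spl)m3-HLH (chr3R:26020308-26020663), ranked 1892, 5004 and 3008 in replicates 1, 2 and 3, and it was named after its values were seen. Segmentation genes (15), cell cycle regulators (12), Polycomb and trithorax group genes (16) and general transcription and splicing genes (12) also held 0. Against a background of 4.38% of genes, a count of 0 in lists this short is no result.

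The remaining developmental lists held 1 or 2 genes each. Genes of Wg, Hh, Dpp or JAK/STAT signalling had 2 of 25: the member in fz, a Wg receptor gene, ranked 3644, 9918 and 3983 in replicates 1, 2 and 3, and that in smo, a gene of Hh reception, 3765, 6006 and 3846. The TSS of CG13481 was nearer to the first and that of CG17078 to the second. Neuronal genes had 2 of 14, jing (4508, 5062 and 3798) and brat, a translational repressor gene (2841, 4555 and 3117), where the TSS of Polr1D was nearer. Hox genes and cofactors had 1 of 10, hth, which encodes a homeodomain cofactor (4115, 4653 and 4251). Mesoderm regulators had 1 of 11, how, which encodes an RNA-binding protein of muscle (2602, 5441 and 3601). Insulator and promoter proteins had 1 of 12, the insulator gene CTCF itself at 217 bp from its TSS (2435, 5053 and 2967).

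Ribosomal protein genes held members near the background share, at promoters. Of 92 cytoplasmic ribosomal protein genes 5 (5.43%) and of 73 mitochondrial ones 4 (5.48%) held a member, against 4.38% of all genes. Peaks of all 3 replicates were held by 44 and 22 of them. RpS7 ranked 2342, 5651 and 3453 in replicates 1, 2 and 3, at -161 bp from its TSS. RpL37-1, whose window holds the TATCGATA printed above, ranked 3080, 4826 and 3579 at -25 bp. RpLP2 ranked 3750, 10390 and 4268. At RpL35 and RpS15 the TSS of Rab18 and of CG4927 was nearer. Among mitochondrial genes mRpL39 ranked 2126, 5255 and 1889, mRpL16, whose window holds the CACGTG printed above, 2375, 6728 and 3218, and mRpS21 4438, 9876 and 3174. At mRpL18 the TSS of Taz was nearer. All 9 summits were in promoters.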

How the data were processed

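Peak lists of 3 E(spl)mgamma-HLH ChIP-seq replicates were used in narrowPeak layout in dm6. A control experiment that the labels name was not analysed here. Per the deposited text records each replicate list holds peaks and background regions called on 1 replicate against a control, and a pooled list and a reproducible set were made from all 3. The aligner, the peak caller and the threshold of the reproducible set are not named in the sources. The deposited signal (column 7) is the authors' coverage-type value, not normalized between lists, and served only to rank. The deposited q-value (column 9) is the authors' −log10 value. The summit offset (column 10) was used as deposited, and the p-value column 8 was unassigned. Depth is unknown.

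Top peaks are the 4524 peaks of highest signal per list, and summit windows hold 101 bp. Summits were put in the first class that applied with Ensembl release 115 on BDGP6.54: promoter, within 500 bp of any TSS, then 5' UTR, CDS, 3' UTR, other genic, intergenic. The nearest gene is the protein-coding gene with the nearest TSS. Sequence came from RefSeq Release 6 plus ISO1 MT, whose arm lengths fit the peaks and the annotation. Of the members, those named were the 10 of best mean rank in replicates 1 and 3, the 10 best with no listed replicate 2 region, the best of each listed gene and those at the rank limits, with exceptions said where they occur. Members, lists and alternatives were chosen with earlier results of these data known. Scripts ran in Python 3.11.15 with numpy 2.4.6, pandas 2.3.3, scipy 1.17.1 and matplotlib 3.10.9, and were checked on simulated data. The number of members is a count, 517; in the comparison of settings it is given as a percentage of the list the peaks came from, since lists of different length were used, and with all peaks of q below 0.05 the count was 201.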

Additional observations from a re-analysis of the deposited data

How the results depend on the processing

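Settings were compared by the members' number as a percentage of the replicate list they were drawn from, 11.4% (517). It was 10.8% with 3000 top peaks per list (324 members), 9.27% with 9000 (834), 3.71% of the 5411 replicate 1 peaks with all peaks of q below 0.05, and 0.973% (44) when no listed replicate 2 region might share a base. Dropping the condition on 1 replicate gave from 21.9 to 81.3%. The same rule on the dm3 lists gave 513 members, starting from replicate 3 gave 517, and a summit rule for replicate 2 gave 540. The promoter share, 55.1%, was 66.0% with 3000 top peaks, 38.5% with 9000, 41.8% with q below 0.05, 40.9% with no listed replicate 2 region, 42.4% within 200 bp of a TSS, 65.0% within 1000 bp, and between 47.6 and 52.4% without the condition on 1 replicate. The TATCGATA share, 2.32%, was 0.498% with q below 0.05 and 5.80% in windows of 100 bp to either side, and stayed within its interval under 10 other settings. Mean GC content, 35.8%, was 37.4% with 9000 top peaks, 36.5% with q below 0.05 and from 34.9 to 36.6% without the condition on 1 replicate, and stayed within the 95% interval of the mean over peaks under 7 other settings. Leaving out the 5 members beside a replicate 2 top peak, chosen after seeing the data, gave 512 members. No paired analysis was possible because all 3 samples form 1 group. With 1 group and unknown depth, no difference in binding between replicates can be tested. The cause of these changes was not tested.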
